A study of Mus musculus with 15 samples.

Results

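The Hox genes encode homeodomain transcription factors that lie in 4 clusters, and the 39 genes of these clusters (Hoxa, Hoxb, Hoxc and Hoxd) were taken by symbol out of 27179 genes in a deposited table of read counts. The order of Hox genes along a cluster follows the order in which they are active along the head to tail axis of the embryo, with low paralog numbers active anteriorly and high numbers posteriorly, and clusters are opened or closed as chromatin domains by trithorax and Polycomb proteins. In the gut, Hox expression is described for the mesenchyme and, at lower levels, the epithelium, where Cdx factors act upstream of it and region-specific combinations persist in the adult. The genes were read here by paralog number, as anterior (1 to 5, 15 genes), middle (6 to 9, 12 genes) and posterior (10 to 13, 12 genes).

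RNA was measured in intestinal epithelial cells of mice that carried the Apc-min allele, which gives intestinal tumors, and the Lrig1-eGFP-IRES-CreERT2 allele, a fluorescent reporter of the stem and progenitor cell gene Lrig1. All groups shared both alleles, and the labels name no age, sex, drug or animal for a library, so a p-value reflects library to library spread, which may be technical in part. Cells positive for Epcam and negative for CD45 and CD31 were sorted for a high or a low reporter signal. The libraries compared were 3 tumor Lrig1-high (S04, S08 and S12), 3 tumor Lrig1-low (S03, S07 and S11), 4 normal Lrig1-high (S02, S06, S10 and S14) and 4 normal Lrig1-low (S01, S05, S09 and S13), and values of a group are given in that order. A further tumor Lrig1-low library, S15, held 357 counts in 47 genes and 0 Hox counts, and was left out.

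The 14 libraries held 9508505 to 17296536 counts, of which 4391 in all fell on Hox genes. At these depths 3 counts corresponded to 0.172 to 0.324 CPM (counts scaled to library size with TMM factors), and many Hox values lay near that floor. The Lrig1 gene was at 148, 55.7 and 72.5 CPM in tumor Lrig1-high and 53.2, 142 and 43.0 CPM in tumor Lrig1-low libraries. It was at 126, 138, 36.4 and 146 CPM in normal Lrig1-high and 51.4, 45.3, 85.5 and 54.0 CPM in normal Lrig1-low libraries. Lrig1 went against the label in 4 libraries, as S07 and S09, labelled low, were above S08 and S10, labelled high, and the counts of calls, the genes called and the sums of tumor against normal are also given for the other 10 libraries. The tissue is labelled colon. The small intestine markers Sis, a brush border enzyme, and Lyz1, the lysozyme of Paneth cells, averaged 408 ± 238 and 759 ± 566 CPM in tumor libraries (SD, n = 6). They averaged 1418 ± 969 and 1111 ± 1390.1 CPM in normal libraries (SD, n = 8). The colon marker Car4, a membrane carbonic anhydrase, averaged 15.6 ± 17.3 CPM in tumor (SD, n = 6) and 63.2 ± 38.98 CPM in normal libraries (SD, n = 8). Car1, a carbonic anhydrase of colon surface cells chosen after its values were seen, was at 0 to 0.222 CPM in tumor libraries and at 0 in all normal libraries.

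Promoter windows of 5 Hox genes are printed because the tumor and normal comparison turned on them. Hoxa2, Hoxa3 and Hoxa5 passed the test, and Hoxb8 and Hoxd4 had counts almost only in tumor libraries. Each window runs from 250 bases before to 50 bases after the gene start, on the gene's strand, from RefSeq on GRCm38.p6, where 22 of the 39 Hox genes had an entry (24 windows). The windows are chr6:52164782-52165081, chr6:52213018-52213317 and chr6:52204538-52204837 on the minus strand, and chr11:96281655-96281954 and chr2:74721728-74722027 on the plus strand. Capitals mark the matches, on either strand, to TTTATTG, of the kind bound by Cdx factors, or to TGATTNAT, of the kind bound by Hox and Pbx proteins together.
Hoxa2 promoter: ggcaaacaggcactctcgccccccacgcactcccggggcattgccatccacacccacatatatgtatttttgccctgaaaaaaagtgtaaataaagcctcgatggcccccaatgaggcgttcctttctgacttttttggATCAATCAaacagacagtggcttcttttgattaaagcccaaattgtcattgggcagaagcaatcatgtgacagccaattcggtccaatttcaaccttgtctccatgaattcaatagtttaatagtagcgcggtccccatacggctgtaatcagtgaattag
Hoxa3 promoter: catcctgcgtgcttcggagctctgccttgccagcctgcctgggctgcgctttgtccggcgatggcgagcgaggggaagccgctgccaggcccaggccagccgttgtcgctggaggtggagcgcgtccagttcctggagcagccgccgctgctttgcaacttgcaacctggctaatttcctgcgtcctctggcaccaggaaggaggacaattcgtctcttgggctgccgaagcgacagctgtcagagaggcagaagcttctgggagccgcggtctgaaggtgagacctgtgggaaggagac
Hoxa5 promoter: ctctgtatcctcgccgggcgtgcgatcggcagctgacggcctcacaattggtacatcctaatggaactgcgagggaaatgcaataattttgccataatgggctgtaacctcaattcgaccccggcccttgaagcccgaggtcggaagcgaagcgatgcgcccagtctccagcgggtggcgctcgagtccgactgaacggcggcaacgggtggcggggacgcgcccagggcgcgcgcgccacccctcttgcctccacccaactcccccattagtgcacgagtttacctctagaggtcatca
Hoxb8 promoter: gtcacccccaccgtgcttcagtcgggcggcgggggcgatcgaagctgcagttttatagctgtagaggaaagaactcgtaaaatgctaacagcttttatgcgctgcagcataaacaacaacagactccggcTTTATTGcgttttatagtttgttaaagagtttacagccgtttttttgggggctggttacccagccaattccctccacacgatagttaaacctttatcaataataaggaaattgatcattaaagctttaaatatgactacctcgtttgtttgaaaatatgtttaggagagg
Hoxd4 promoter: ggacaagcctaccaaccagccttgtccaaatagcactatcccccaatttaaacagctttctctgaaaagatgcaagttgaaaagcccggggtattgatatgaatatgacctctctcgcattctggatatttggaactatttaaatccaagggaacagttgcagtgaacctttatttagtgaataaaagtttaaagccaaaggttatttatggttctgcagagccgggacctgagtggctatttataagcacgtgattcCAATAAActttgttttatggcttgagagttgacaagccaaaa
The Hoxa2 window held 1 match to the Hox-Pbx letters, the Hoxb8 and Hoxd4 windows held 1 match each to the Cdx letters, and the Hoxa3 and Hoxa5 windows held neither. The 2 motifs share no match in these windows. Over all 32851 RefSeq windows of that length, 4.6% held the Cdx letters and 3.22% held the Hox-Pbx letters, against 2 of 24 Hox windows for each. A match to letters is a description and not a binding site.

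Hox RNA was higher in tumor than in normal libraries, and most of it came from the Hoxa genes from Hoxa2 to Hoxa10 and from Hoxb3 to Hoxb9. Summed over the 39 genes, the level was 28.1, 39.3 and 70.4 CPM in tumor Lrig1-high and 35.3, 27.2 and 82.9 CPM in tumor Lrig1-low libraries. It was 8.77, 4.83, 9.03 and 9.41 CPM in normal Lrig1-high and 5.71, 4.12, 11.4 and 6.30 CPM in normal Lrig1-low libraries. Every tumor library lay above every normal library, and the lowest tumor sum, in S07, was 27.2 CPM against 11.4 CPM for the highest normal sum, in S09. In bulk samples a larger share of Hox-positive cells and more Hox RNA per cell cannot be told apart.

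Of the anterior, middle and posterior genes, the anterior ones alone gave sums that did not overlap between tumor and normal libraries. Their sum was 14.03, 32.3 and 46.2 CPM in tumor Lrig1-high and 15.2, 10.98 and 21.8 CPM in tumor Lrig1-low libraries, and 4.10, 3.38, 4.97 and 5.28 CPM in normal Lrig1-high and 3.42, 2.42, 7.13 and 2.33 CPM in normal Lrig1-low libraries. The lowest tumor library was S07 and the highest normal library S09, and the mean was 23.4 ± 13.5 CPM in tumor (SD, n = 6) and 4.13 ± 1.62 CPM in normal libraries (SD, n = 8), a ratio of 5.67. The middle genes summed to 13.7, 7.03 and 0.973 CPM in tumor Lrig1-high and 19.9, 16.2 and 56.9 CPM in tumor Lrig1-low libraries, and to 4.16, 1.46, 3.88 and 4.13 CPM in normal Lrig1-high and 2.28, 1.16, 4.16 and 3.97 CPM in normal Lrig1-low libraries. Here S12 fell below every normal library and the other 5 tumor libraries stayed above all of them. The means were 19.1 ± 19.7 CPM in tumor (SD, n = 6) and 3.15 ± 1.30 CPM in normal libraries (SD, n = 8), so that the spread among tumor libraries was as large as their mean. The posterior genes were at 0.396, 0 and 23.2 CPM in tumor Lrig1-high and 0.141, 0 and 4.22 CPM in tumor Lrig1-low libraries, and at 0.505, 0, 0.182 and 0 CPM in normal Lrig1-high and 0, 0.537, 0.0660 and 0 CPM in normal Lrig1-low libraries. Only S12 and S11 stood above the normal libraries, and without S12 the ratio of the means fell to 5.90 against 29.0 with it. In the 10 libraries whose Lrig1 level went with the label, the ratios of tumor over normal means were 6.97 for anterior, 8.00 for middle and 40.3 for posterior genes.

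**Figure D1:**
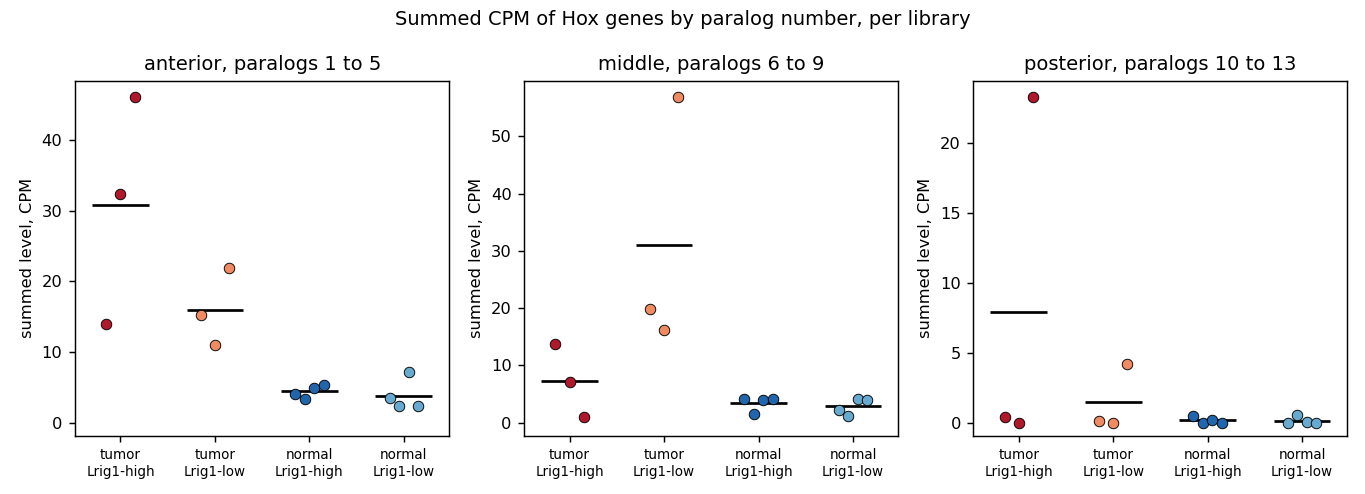
Summed CPM (vertical axes, a scale per panel) of anterior, middle and posterior Hox genes in each of 14 libraries, by group, with a line at each group mean. The anterior sums of the 6 tumor libraries, 10.98 to 46.2 CPM, lie above all normal sums, 2.33 to 7.13 CPM, whereas 1 tumor library lies below the normal range for middle genes and 4 of 6 lie within it for posterior genes.

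Tumor libraries differed in the measured levels of the Hox clusters. Hoxa genes summed to 14.1, 19.1 and 70.0 CPM in tumor Lrig1-high and 19.8, 8.22 and 60.7 CPM in tumor Lrig1-low libraries, against 1.72 to 6.60 CPM over the 8 normal libraries. Hoxb genes summed to 12.8, 15.1 and 0.432 CPM in tumor Lrig1-high and 14.997, 18.1 and 22.2 CPM in tumor Lrig1-low libraries, against 1.52 to 5.72 CPM in normal libraries. S12, highest for Hoxa, was the lowest of all 14 libraries for Hoxb. Gene detection was poorest in S12, where 11995 genes reached at least 1 count. In S08 12900 genes did so, and 14642 to 16425 in the remaining libraries. The TMM factor of S12, 0.699, was the smallest of the 14. The bearing of this low detection on the high and 0 values of Hox genes in S12 was not tested. Hoxd genes had counts in 4 tumor libraries (S03, S04, S07 and S08), at 0.493 to 5.201 CPM, and in none of the 8 normal libraries. Of their 95 counts, 57 were in S08, with 7, 15 and 16 in S03, S04 and S07. The share of all genes with counts in tumor libraries only was not computed. The Hoxc cluster, of 9 genes, had 1 count in all, of Hoxc6 in S11. Of the 39 genes, 24 had at least 1 count: 11 of 11 Hoxa, 8 of 10 Hoxb, 1 of 9 Hoxc and 4 of 9 Hoxd genes. The tumor mean was higher for 23 of these 24 and lower for Hoxb2, and among all 19540 genes with a count it was higher for 51.0%.

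The test of tumor against normal used edgeR's quasi-likelihood test with Benjamini-Hochberg adjustment over 13883 genes, averaging the Lrig1-high and Lrig1-low comparisons. It included 14 Hox genes that passed the filter on low counts, 8 anterior, 6 middle and no posterior ones. Hoxa2, Hoxa3 and Hoxa5 were called higher in tumors and none was called lower, 3 of 14, where 1.82% of all genes tested were called higher and 0.396% lower, 2.22% in all. The log2 fold change was positive for 14 of 14, with a median of 2.03, also with Hoxd4 at its bound, against -0.02 over all genes tested and 48.4% positive. The filter kept 2 Hox genes in the normal libraries alone and 13 in the tumor libraries alone, so most of the 14 passed it through the tumor libraries, where they were high. Their count, signs and median are therefore a description of the genes tested, and say nothing of the 39. DESeq2 called 4 of the 14, where it called 7.64% of all genes, and limma-voom with sample weights called 6, where it called 3.95%.

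Among the anterior genes, Hoxa3 (chr6:52169062-52213067, minus strand), a paralog 3 gene needed for thymus and parathyroid formation, was the only Hox gene with counts in all 14 libraries. Hoxa3 was at 4.04, 10.0 and 8.11 CPM in the tumor Lrig1-high libraries and 5.91, 4.94 and 3.18 CPM in the tumor Lrig1-low libraries. In normal epithelium it was at 1.20, 0.662, 1.58 and 1.95 CPM in the Lrig1-high libraries and 0.978, 0.716, 2.18 and 1.32 CPM in the Lrig1-low libraries. The groups did not overlap, and the gap between the lowest tumor library, S11, and the highest normal library, S09, was 3.18 against 2.18 CPM. The mean was 6.04 ± 2.59 CPM in tumor (SD, n = 6) and 1.32 ± 0.552 CPM in normal libraries (SD, n = 8), and the log2 fold change was 2.14 ± 0.42 (SE), 4.42-fold, with an adjusted p of 0.0280 in edgeR. Per kilobase of exon, its median level ranked first of the 39 genes both in tumor (2.13 CPM per kb) and in normal libraries (0.496 CPM per kb). By the mean per kilobase, Hoxa3 had rank 4 in tumor and rank 2 in normal libraries. Over 543 bases its exons overlap genes on the other strand, the noncoding gene Hoxaas3 and a gene without a symbol, and counting was by strand.

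Hoxa2 (chr6:52162511-52164831, minus strand), which patterns the hindbrain and the second pharyngeal arch, was led by 1 tumor library. Hoxa2 was at 1.11, 3.19 and 26.9 CPM in the tumor Lrig1-high libraries and 1.06, 0.402 and 0.667 CPM in the tumor Lrig1-low libraries. The normal Lrig1-high libraries had 0.126, 0.265, 0.121 and 0.0724 CPM and the normal Lrig1-low libraries 0.326, 0.0895, 0.330 and 0 CPM. S12, with 249 of the gene's 348 counts, stood far above the rest, yet the groups did not overlap without it either, since the lowest tumor library, S07, was at 0.402 against 0.330 CPM for the highest normal library. That gap rests on 7 counts in S07 and 5 in S09. The log2 fold change was 3.96 ± 0.81 (SE), with an adjusted p of 0.0302 in edgeR; without S12 it was 2.79 ± 0.71 and the adjusted p was 0.0667.

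Hoxa5 (chr6:52201754-52204587, minus strand), a gene of lung and gut morphogenesis whose product restrains stem cell traits in the intestine of mice, was highest in S11 and S12. Hoxa5 was at 2.38, 2.19 and 8.11 CPM in the tumor Lrig1-high libraries and 2.53, 1.03 and 11.997 CPM in the tumor Lrig1-low libraries. Levels in normal epithelium were 0.379, 0, 1.03 and 0.362 CPM with high and 0.0815, 0.179, 0.660 and 0.156 CPM with low Lrig1 sorting. All tumor libraries were above all normal libraries by a margin within counting error, as 18 counts in the tumor library S07 stood against 17 in the normal library S10, at 1.03 CPM each. The log2 fold change was 3.71 ± 0.84 (SE), 13.1-fold, with an adjusted p of 0.0400 in edgeR; without S11 the adjusted p was 0.154. Of all genes tested, 0.886% had every tumor library above every normal library, and 0.569% every tumor library below, and of the 14 Hox genes tested Hoxa2, Hoxa3 and Hoxa5 had all tumor libraries above.

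**Figure D2:**
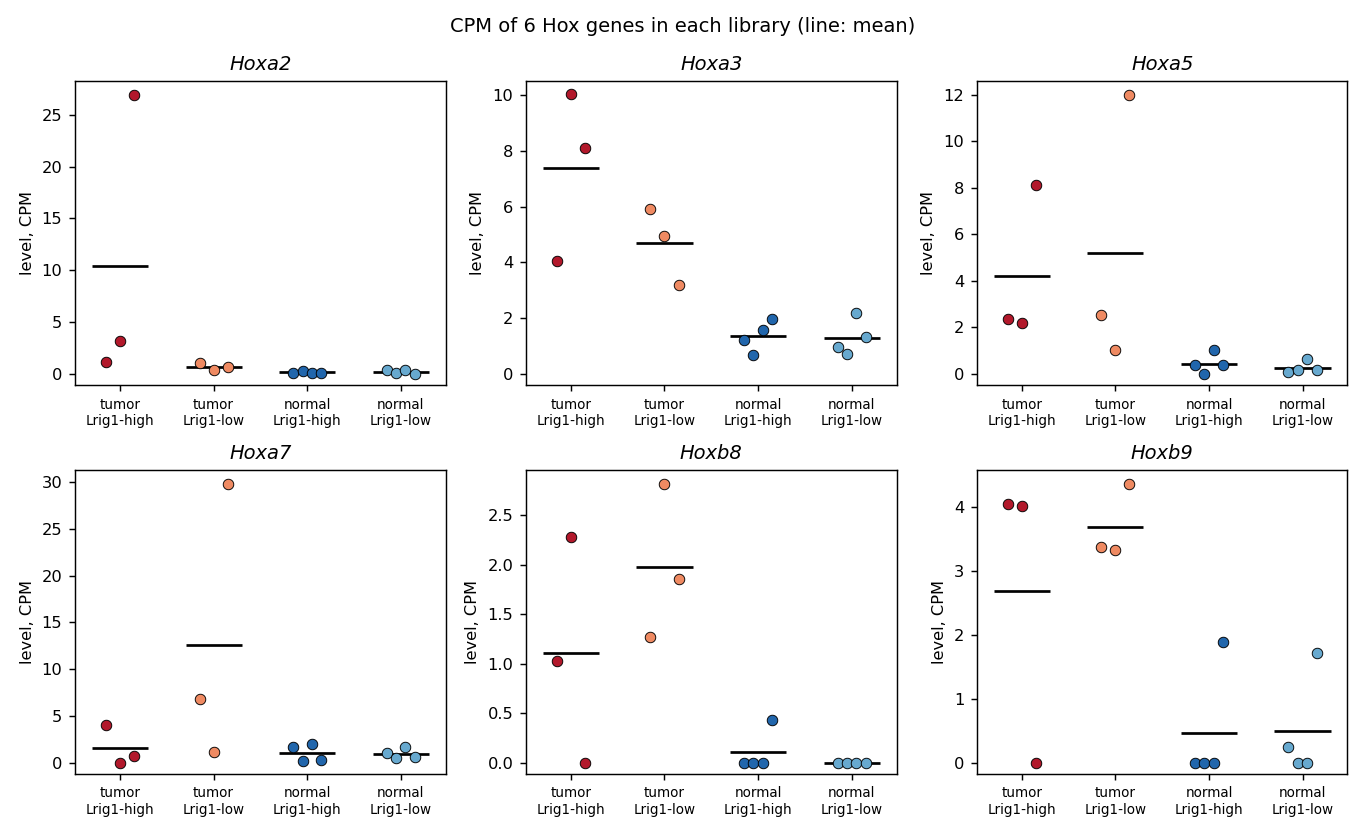
CPM (vertical axes, a scale per panel) of Hoxa2, Hoxa3, Hoxa5, Hoxa7, Hoxb8 and Hoxb9 in each library, by group, with a line at each group mean. Hoxa3 lies at 3.18 to 10.0 CPM in the tumor libraries, while single libraries lead Hoxa2 (26.9 CPM in S12) and Hoxa7 (29.8 CPM in S11).

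All 3 calls depended on the libraries in the fit. With each library left out in turn, 0 to 4 Hox genes were called, and none was without the tumor library S11 or without any 1 of the normal libraries S01, S02, S05, S06, S13 or S14. Without S03 the calls were Hoxa2 and Hoxa5, without S12 they were Hoxa3 and Hoxb8, and without S04 they were Hoxa2, Hoxa3, Hoxa5 and Hoxb8. Calls over all genes moved as well, with 253 genes higher and 55 lower in the fit on 14 libraries. They were 31 higher and 5 lower without S01, 31 higher and 3 lower without S11, and 541 higher and 519 lower without S04. The direction was kept for Hoxa2, Hoxa3 and Hoxa5 in all 14 of these fits, with log2 fold changes of 2.79 to 4.22, 1.998 to 2.30 and 2.94 to 4.13. In the 10 libraries whose Lrig1 level went with the label they were again the 3 genes called, of 13 Hox genes tested and with 4.71% of all genes called, at 4.48 ± 0.98, 2.21 ± 0.50 and 4.98 ± 0.86 on the log2 scale (SE; adjusted p of 0.0348, 0.0389 and 0.0128 in edgeR).

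Hoxa4, which neighbours Hoxa3 and Hoxa5 in the cluster, did not separate the groups. Hoxa4 was at 1.19, 1.19 and 2.59 CPM in the tumor Lrig1-high libraries and 2.11, 0.747 and 0.148 CPM in the tumor Lrig1-low libraries. In normal epithelium it was at 0, 0.397, 0.121 and 0.724 CPM in the Lrig1-high libraries and 0.815, 0.537, 1.39 and 0 CPM in the Lrig1-low libraries. The tumor library S11, high for Hoxa5, was below 5 of 8 normal libraries, and the log2 fold change was 1.46 ± 0.91 (SE), which did not pass the test (adjusted p = 0.442 in edgeR). Among anterior Hoxb genes, Hoxb3 overlapped between the groups. Hoxb3 was at 1.66, 6.75 and 0 CPM in the tumor Lrig1-high libraries and 1.76, 0.575 and 1.85 CPM in the tumor Lrig1-low libraries. The normal Lrig1-high libraries had 2.27, 0.397, 0.909 and 0.724 CPM and the normal Lrig1-low libraries 0, 0.0895, 1.12 and 0.622 CPM. S08 was highest and S12 had no count, and its log2 fold change was 1.47 ± 0.95 (SE; adjusted p = 0.464 in edgeR), or 0.61 without S08. Hoxb4, known for the expansion of blood stem cells when overexpressed, was lower still. Hoxb4 was at 1.35, 0 and 0.432 CPM in the tumor Lrig1-high libraries and 0.563, 1.26 and 1.9995 CPM in the tumor Lrig1-low libraries. Levels in normal epithelium were 0.0631, 0.728, 0.667 and 0.579 CPM with high and 0.326, 0, 0.396 and 0.156 CPM with low Lrig1 sorting. Tumor libraries S11, S04 and S07 were above all normal libraries and the other 3 were not, with a log2 fold change of 1.35 ± 0.86 (SE; adjusted p = 0.458 in edgeR), or 0.61 without S04. Hoxb5, which in mice acts in the migration of enteric neural crest, gave a like picture. Hoxb5 was at 0.317, 1.28 and 0 CPM in the tumor Lrig1-high libraries and 0.704, 0.862 and 1.41 CPM in the tumor Lrig1-low libraries. In normal epithelium it was at 0, 0.331, 0 and 0.724 CPM in the Lrig1-high libraries and 0.326, 0.0895, 0.264 and 0.0778 CPM in the Lrig1-low libraries. Its groups overlapped, and the log2 fold change was 1.67 ± 0.98 (SE; adjusted p = 0.412 in edgeR), or 0.85 without S08. Hoxb2 was the 1 gene with a lower tumor mean, at 0.233 ± 0.248 CPM in tumor (SD, n = 6) and 0.367 ± 0.326 CPM in normal libraries (SD, n = 8), a difference below the spread of either group. Hoxb1, Hoxc4, Hoxc5 and Hoxd1 had no count in any library.

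Of the middle Hoxa genes, Hoxa7 reached the highest single value of any Hox gene, in S11. Hoxa7 was at 4.04, 0 and 0.757 CPM in the tumor Lrig1-high libraries and 6.76, 1.09 and 29.8 CPM in the tumor Lrig1-low libraries. The normal Lrig1-high libraries had 1.70, 0.132, 1.94 and 0.290 CPM and the normal Lrig1-low libraries 0.978, 0.537, 1.72 and 0.544 CPM. S11 held 403 of its 692 counts, S07 and S12 lay within the normal range and S08 had none. The log2 fold change was 2.18 ± 0.92 (SE), which did not pass the test (adjusted p = 0.234 in edgeR). Without S04 it was 1.13. Hoxa9, a gene of blood progenitors and of leukemia, followed the same library. Hoxa9 was at 0.555, 0 and 0 CPM in the tumor Lrig1-high libraries and 0.986, 0 and 8.74 CPM in the tumor Lrig1-low libraries. Levels in normal epithelium were 0.820, 0.265, 0.121 and 0.290 CPM with high and 0.163, 0, 0.264 and 0 CPM with low Lrig1 sorting. Of its 168 counts 118 were in S11, 3 of 6 tumor libraries had none, and the log2 fold change was 1.92 ± 1.20 (SE), which did not pass the test (adjusted p = 0.448 in edgeR). Without S04 the Hoxa9 fold change was -0.32 on the log2 scale. Hoxa6 had 29 counts in all, of which 20 in S11, and was not tested.

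The middle Hoxb genes had counts in the 5 tumor libraries other than S12 and none in S12. Hoxb6 and Hoxb7 had counts in nearly all normal libraries. Hoxb6 was at 1.90, 0.182 and 0 CPM in the tumor Lrig1-high libraries and 2.61, 6.44 and 5.78 CPM in the tumor Lrig1-low libraries. In normal epithelium it was at 1.01, 0.530, 0.364 and 0.724 CPM in the Lrig1-high libraries and 0, 0.358, 0.660 and 1.01 CPM in the Lrig1-low libraries. S03, S04, S07 and S11 were above all normal libraries, S08 and S12 were not, and the log2 fold change was 1.68 ± 0.85 (SE; adjusted p = 0.335 in edgeR). Without S04 the Hoxb6 value was 0.29. Hoxb7 was at 1.90, 0.547 and 0 CPM in the tumor Lrig1-high libraries and 4.58, 2.36 and 4.74 CPM in the tumor Lrig1-low libraries. The normal Lrig1-high libraries had 0.379, 0.530, 1.45 and 0.507 CPM and the normal Lrig1-low libraries 0.815, 0.268, 1.52 and 0.700 CPM. The same 4 tumor libraries were above all normal ones, with a log2 fold change of 1.21 ± 0.72 (SE; adjusted p = 0.425 in edgeR), or 0.44 without S04.

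Hoxb8 and Hoxb9, the most posterior Hoxb genes detected, had no count in most normal libraries. Hoxb8 was at 1.03, 2.28 and 0 CPM in the tumor Lrig1-high libraries and 1.27, 2.82 and 1.85 CPM in the tumor Lrig1-low libraries. In normal epithelium Hoxb8 had 6 counts in S14, at 0.434 CPM, and none in the other 7 libraries. All 5 tumor libraries with counts were above S14, and the log2 fold change of 5.53 ± 1.35 (SE) did not pass the test (adjusted p = 0.0618 in edgeR). Hoxb9 was at 4.04, 4.01 and 0 CPM in the tumor Lrig1-high libraries and 3.38, 3.33 and 4.37 CPM in the tumor Lrig1-low libraries. Levels in normal epithelium were 0, 0, 0 and 1.88 CPM with high and 0.245, 0, 0 and 1.71 CPM with low Lrig1 sorting. The 5 tumor libraries, at 3.33 to 4.37 CPM, lay in a narrow range above all normal libraries, and S12 had no count. The normal counts came from S14 (26), S13 (22) and S01 (3). The log2 fold change was 2.70 ± 1.33 (SE), with an adjusted p of 0.319 in edgeR, and 5.53 with an adjusted p of 0.118 without the normal library S14.

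Hoxb9 was set beside Fabp6, an ileal bile acid binding protein, which was chosen after its values were seen. Fabp6 was at 6.98, 38.1 and 0 CPM in tumor Lrig1-high and 91.3, 3.56 and 12.1 CPM in tumor Lrig1-low libraries. It was at 0, 0.132, 0.303 and 1.45 CPM in normal Lrig1-high and 0.245, 0, 0.726 and 14.9 CPM in normal Lrig1-low libraries. The 2 normal libraries with most Hoxb9, S13 and S14, also had the most Fabp6, and S12 had neither. Other small intestine markers did not single out S13 and S14. Among normal libraries, Sis was highest in S10, Lct and Apoa4 in S05, and Defa24 and Lyz1 in S02. In the tumor libraries with Hoxb9 at 3.33 to 4.37 CPM, Fabp6 ran from 3.56 to 91.3 CPM. Fabp6 did not pass the test between tumor and normal (log2 fold change 4.08 ± 1.33 (SE), adjusted p = 0.126 in edgeR). The labels give no position along the gut for a library, so position and tumor state cannot be told apart.

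**Figure D3:**
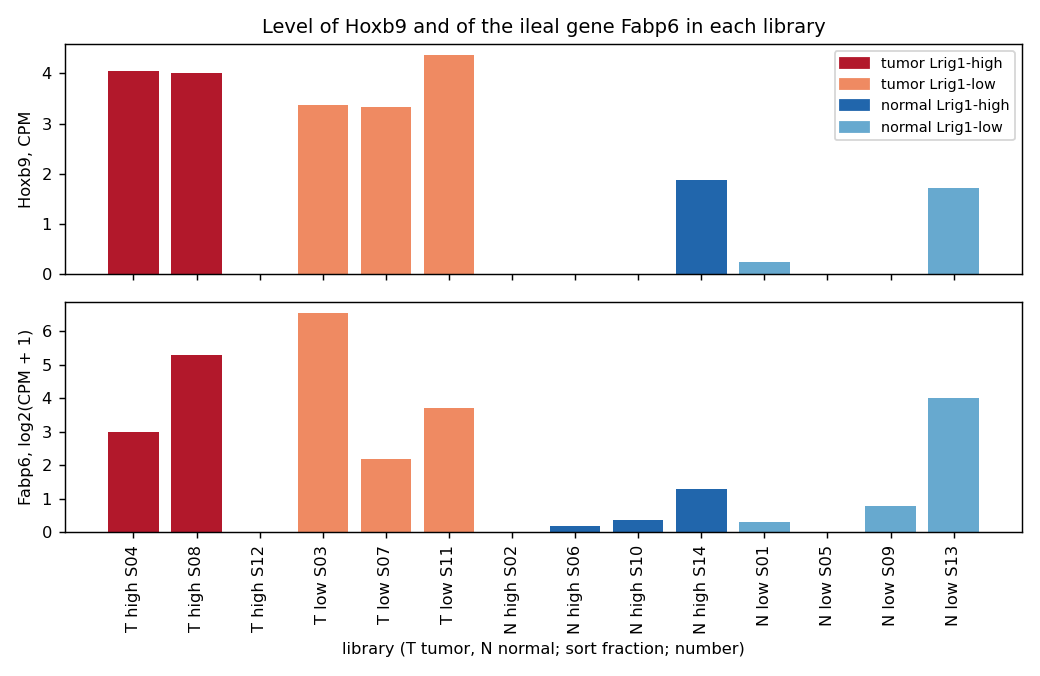
Hoxb9 in CPM (upper panel) and Fabp6 as log2(CPM + 1) (lower panel) in each library, tumor libraries left. Both are present in 5 of 6 tumor libraries and absent from S12, and among normal libraries S13 and S14 have the highest bars in both panels.

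Hoxd4 had the most counts of the Hoxd genes. Hoxd4 was at 0.951, 4.47 and 0 CPM in the tumor Lrig1-high libraries and 0.141, 0.747 and 0 CPM in the tumor Lrig1-low libraries. It had no count in any of the 8 normal libraries. With 76 counts in tumors, 49 of them in S08, it was at least 36.6-fold higher in tumors against a floor of 3 counts over the normal libraries. It did not pass the test (adjusted p = 0.0981 in edgeR), and its fitted fold change depends on the prior count. Hoxd3 had 8 counts in S08 and 1 in S03, Hoxd8 had 3 counts each in S03, S04 and S07, and Hoxd10 had 1 count in S03. Hoxd9, Hoxc8 and Hoxc9 had none.

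Posterior Hox RNA was nearly all Hoxa10, a gene known from the patterning of the uterus. Hoxa10 was at 0.396, 0 and 23.2 CPM in the tumor Lrig1-high libraries and 0.0704, 0 and 3.92 CPM in the tumor Lrig1-low libraries. In normal epithelium it was at 0.505, 0, 0.182 and 0 CPM in the Lrig1-high libraries and 0, 0.537, 0.0660 and 0 CPM in the Lrig1-low libraries. Of its 292 counts, 215 were in S12 and 53 in S11, and it failed the filter on low counts, so it was not tested. Hoxa11 had 1 count and Hoxa13, a hindgut gene, had 3, all in S11. The noncoding gene Hoxa11os, opposite Hoxa11, was at 13.2 CPM in S12 and at 0 in the other 13 libraries. Of 10 Hox cluster noncoding genes measured, 7 had no count, Hotair among them, and Hoxaas3, beside Hoxa3, was at 0 to 2.28 CPM in tumor libraries and at 0 in normal libraries. Hoxb13, known from the distal colon and the prostate, and Hoxc10, Hoxc11, Hoxc12, Hoxc13, Hoxd11, Hoxd12 and Hoxd13 had no count in any library. A count of 0 allows up to 3 counts, or 0.172 to 0.324 CPM in a library, by counting error alone.

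**Figure D4:**
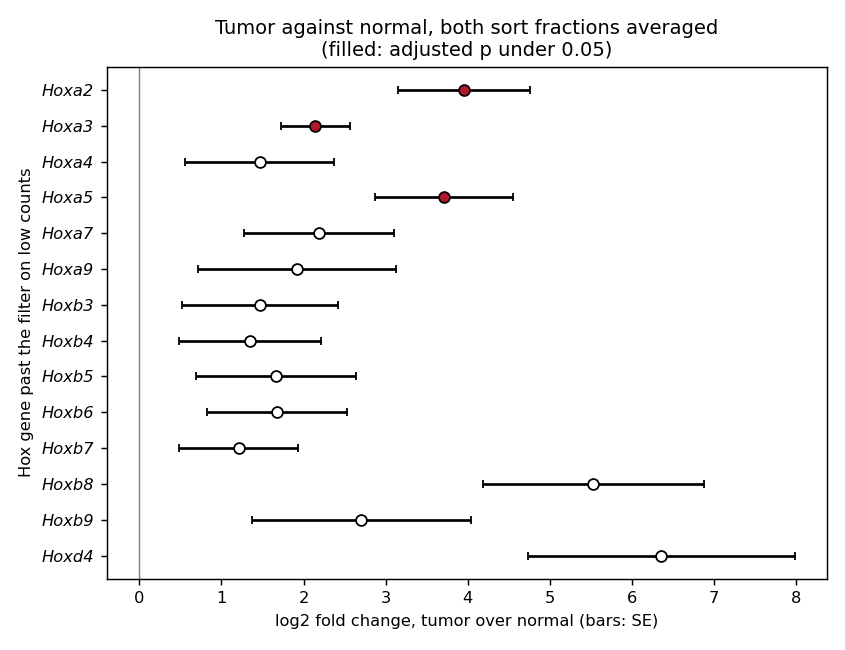
Log2 fold change of tumor over normal (horizontal axis, bars show the SE) for the 14 Hox genes tested, down the page by cluster and paralog number. Points are filled for Hoxa2, Hoxa3 and Hoxa5, whose adjusted p was under 0.05, all 14 lie above 0, and the value of Hoxd4, with no normal count, depends on the prior count.

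Within the Lrig1-low fraction, edgeR called 0 of 14 Hox genes between tumor and normal libraries, where 0.331% of all genes were called, 0.31% higher and 0.0216% lower. An unadjusted p under 0.05 was found for 7 of the 14 Hox genes, against 14% of all genes. DESeq2 called 4 Hox genes and 5.09% of all genes, and limma-voom with sample weights called 7 Hox genes and 10% of all genes. In the 10 libraries edgeR called 1 of 13 Hox genes, Hoxa5, and 3.23% of all genes. Hoxa3 had a log2 fold change of 1.84 ± 0.60 (SE; adjusted p = 0.164) and Hoxa5 of 4.20 ± 1.21 (SE; adjusted p = 0.125 in edgeR). Within the Lrig1-high fraction, edgeR also called 0 of 14, where 0% of all genes were called. There 4 of the 14 had an unadjusted p under 0.05, against 11.2% of all genes. DESeq2 called 2 Hox genes and 0.821% of all genes, and limma-voom called 0 Hox genes and 0% of all genes. In the 10 libraries edgeR called 0 of 13 Hox genes and 0.0858% of all genes. Hoxa2 had a log2 fold change of 6.06 ± 1.21 (SE; adjusted p = 0.304 in edgeR), which S12 led, and Hoxa3 of 2.45 ± 0.60 (SE; adjusted p = 0.355 in edgeR). The difference between the fractions was tested in the same fit and called 0 of 14, where 0% of all genes were called. DESeq2 and limma-voom called 0 Hox genes as well, with 0.036% and 0% of all genes. An unadjusted p under 0.05 was found in edgeR for 2 of the 14 Hox genes, against 7.2% of all genes. The smallest was that of Hoxa2, at 0.0213, with a difference of 4.21 ± 1.62 on the log2 scale (SE; adjusted p = 0.685 in edgeR).

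Lrig1-high and Lrig1-low cells showed no called difference in a Hox gene. In tumors edgeR called 0 of 14, with a lowest adjusted p of 0.655. There 1 of the 14, Hoxa2, had an unadjusted p under 0.05, against 7.51% of all genes. In normal epithelium edgeR called 0 of 14, and none had an unadjusted p under 0.05, against 3.59% of all genes. In both comparisons edgeR called 0% of all genes. DESeq2 and limma-voom called 0 Hox genes in either. Over all genes DESeq2 called 0.13% in tumors and 0.0072% in normal epithelium, and limma-voom called 0% in tumors and 30% in normal epithelium. In the 10 libraries edgeR called 0 of 13 Hox genes in both comparisons, with 0.343% of all genes in tumors and 5.69% in normal epithelium. The anterior sum was 30.8 ± 16.1 CPM in tumor Lrig1-high and 16.01 ± 5.48 CPM in tumor Lrig1-low libraries (SD, n = 3 each), and the middle sum was 7.24 ± 6.37 CPM in tumor Lrig1-high and 31.0 ± 22.5 CPM in tumor Lrig1-low libraries. For the middle genes the 3 tumor libraries labelled Lrig1-low were above the 3 labelled Lrig1-high, with 16.2 CPM in S07 against 13.7 CPM in S04. By measured Lrig1 level S07 and S08 would change places. The middle sums would then overlap, with S08 at 7.03 CPM. Without S07 and S08, the middle sums were 13.7 and 0.973 CPM in tumor Lrig1-high and 19.9 and 56.9 CPM in tumor Lrig1-low libraries. The anterior sums were then 14.03 and 46.2 CPM in tumor Lrig1-high and 15.2 and 21.8 CPM in tumor Lrig1-low libraries, so they overlapped. In normal epithelium the anterior sum was 4.43 ± 0.864 CPM in Lrig1-high and 3.83 ± 2.26 CPM in Lrig1-low libraries (SD, n = 4 each), with S09, at 7.13 CPM, the highest and S10 at 4.97 CPM.

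Among partners and regulators, given from lists chosen with earlier results known, few genes passed the test. Of the Pbx, Meis and Pknox genes, which encode homeodomain partners of Hox proteins, 7 of 9 were tested and Meis2 rose. Meis2 was at 5.47, 6.11 and 25.9 CPM in tumor Lrig1-high and 21.5, 3.68 and 40.8 CPM in tumor Lrig1-low libraries. It was at 0.315, 0.728, 4.12 and 1.95 CPM in normal Lrig1-high and 2.28, 1.52, 1.06 and 5.21 CPM in normal Lrig1-low libraries, with a log2 fold change of 2.96 ± 0.67 (SE; adjusted p = 0.0408 in edgeR). S11, S12 and S03 were highest and S07 was below 2 normal libraries. Of the Cdx and ParaHox genes, 3 of 6 were tested and none passed. Cdx1 averaged 93.2 ± 49.6 CPM in tumor (SD, n = 6) and 123 ± 19.2 CPM in normal libraries (SD, n = 8), and Cdx2 84.8 ± 29.5 CPM in tumor and 127 ± 15.1 CPM in normal libraries. Both were lowest in S11 and S12, the libraries with most Hoxa RNA, at 30.7 and 38.7 CPM for Cdx1.

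None of 16 Polycomb genes tested passed, with a median log2 fold change of -0.01, and none of 8 trithorax and H3K27 demethylase genes, with a median of -0.01. The most abundant were Suz12, a subunit of the H3K27 methylating complex, at 129 CPM in tumor and 111 CPM in normal libraries on average, and Kmt2a, a trithorax H3K4 methyltransferase, at 198 CPM in tumor and 181 CPM in normal libraries. Of 13 retinoid genes, which make, clear or sense retinoic acid, an inducer of anterior Hox genes in embryos, 9 were tested and none passed. The most abundant of them, Rxra and Aldh1a1, averaged 56.4 and 37.8 CPM in tumor and 94.6 and 104 CPM in normal libraries. Of 7 factors of the proximal gut, Gata4, which keeps jejunal identity in mice, fell, and the other 6 did not pass. Gata4 averaged 93.5 ± 11.6 CPM in tumor (SD, n = 6) and 173 ± 24.9 CPM in normal libraries (SD, n = 8), with no overlap between the groups and a log2 fold change of -0.88 ± 0.12 (SE; adjusted p = 0.00618 in edgeR). None of 6 small intestine markers and none of the 3 tested of 6 colon markers passed.

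Markers of other cell types were measured in the same libraries, since mesenchyme carries much of the Hox RNA of the gut. The summed level of 8 fibroblast markers was 0.541 to 26.9 CPM in tumor and 1.92 to 10.2 CPM in normal libraries. The collagen and proteoglycan genes Col1a1, Col1a2, Col3a1, Dcn and Lum had means of at most 0.0748 CPM in tumor and 0.154 CPM in normal libraries, and the high value, in S11, was Pdgfra at 26.1 CPM. Of 5 smooth muscle markers, Des and Cnn1 were at 0 in all libraries, and the sum was 0.182 to 36.2 CPM in tumor and 0.0662 to 1.16 CPM in normal libraries. S12, with the highest Hoxa2 and Hoxa10, had that highest value, with Myh11 at 23.5, Acta2 at 12.8 and Tagln at 0 CPM. The 6 endothelium markers summed to 6.501 to 192 CPM in tumor and 2.17 to 40.6 CPM in normal libraries, with Cdh5 at 155 CPM in S11, Emcn at 0 in all libraries and CD31-positive cells sorted out. The 8 leukocyte markers summed to 3.46 to 57.2 CPM in tumor and 5.81 to 29.0 CPM in normal libraries, with Ptprc at 46.1 CPM in S08, although CD45-positive cells were sorted out. The 6 neuron and glia markers summed to 0.432 to 5.23 CPM in tumor and 0.408 to 2.18 CPM in normal libraries, with Sox10 at 0. The test between tumor and normal libraries covered only 2 of the 8 fibroblast, 1 of the 5 smooth muscle and 4 of the 6 endothelium markers. It also covered 4 of the 8 leukocyte and 2 of the 6 neuron and glia markers. None of those tested passed, and the rest failed the filter on low counts. Median log2 fold changes of those tested were -0.22 for fibroblast, 3.67 for smooth muscle and 1.73 for endothelium. They were 0.70 for leukocyte and 0.08 for neuron and glia markers. The epithelial marker Epcam was at 605 CPM in S12 and at 1238 to 1396 CPM in the other tumor libraries, against 918 to 1509 CPM in normal libraries. The part of other cell types in the Hox levels was not tested.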

How the data were processed

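The deposited values are read counts, not normalized, that the authors obtained by counting on exons by strand with featureCounts 1.5.3, per the file headers. Trimmomatic, HISAT2 and Subread, with the mm10 build, stand in the submitters' processing notes. Of 27179 gene identifiers, 25275 were paired with a RefSeq symbol, 18 with a GENCODE symbol and 1886 with none. The 39 Hox genes were taken by symbol. They and the lists were chosen with earlier results of these data known. S15, under 1000 counts, was left out.

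Genes kept by filterByExpr (13883) were fitted in edgeR 4.0.16 under R 4.3.3, on TMM-scaled counts with 1 coefficient for each group. Quasi-likelihood tests were adjusted by Benjamini-Hochberg over these genes, with calls at an adjusted p under 0.05. An SE is the absolute log2 fold change divided by the square root of F. Sums over Hox genes were not tested. Every tested Hox gene is given in full. From the other lists the genes past the threshold, or else the 2 most abundant, are named, and a few genes of these lists are not reported here. Further genes named from the cell type marker lists were chosen after their values were seen. Alternatives used DESeq2 1.42.0, limma 3.58.1, other scalings and filters, a block and each library left out. The fit was tested on simulated data. Intervals and floors cover counting error only.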

Additional observations from a re-analysis of the deposited data

Results flagged for a closer look

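In groups of 4 libraries, 31 sets of values were examined for a library far from the other 3, and 7 had one. The rule flags about 1 in 20 sets of Gaussian values, which these low counts are not. Where the other 3 libraries are at 0, any count is flagged. The sums also contain the single genes, so the number flagged cannot be set against chance. In normal Lrig1-high cells, S14 stood apart for Hoxb8, at 0.434 CPM (6 counts), and for Hoxb9, at 1.88 CPM (26 counts), against 0 in the other 3 libraries for both genes. In normal Lrig1-low cells, S13 stood apart for Hoxb9, at 1.71 CPM (22 counts), against 0 to 0.245 CPM. S09 stood apart for Hoxa5, at 0.660 CPM (10 counts), against 0.0815 to 0.179 CPM in the other normal Lrig1-low libraries. S10 stood apart for Hoxb7, at 1.45 CPM (24 counts), against 0.379 to 0.530 CPM in the 3 remaining libraries of normal Lrig1-high cells. The middle Hox genes summed to 1.46 CPM in the normal Lrig1-high library S06, against 3.88 to 4.16 CPM in the other 3. The posterior Hox genes summed to 0.537 CPM in the normal Lrig1-low library S05, against 0 to 0.0660 CPM. Groups of 3 tumor libraries were too small for this rule.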

How the results depend on the processing

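For tumor against normal with both fractions averaged, 3 Hox genes were called. Limma-voom called 6 (3.95% of all genes), DESeq2 4 (7.64%), the fit with S15 4 (2.56%), and other scalings and filters 3 (1.38% to 2.33%), against 2.22% of all genes in the fit reported. Leaving out each library gave 0 to 4. With runs of consecutive library numbers as a replicate block, which the labels do not describe as pairs, 2 were called (1.19% of all genes), Hoxa5 and Hoxb9, the Hoxb9 fold change being 6.61 ± 1.36 on the log2 scale (SE; adjusted p = 0.0487 in edgeR). No shared replicate numbers were given. Within Lrig1-low, where edgeR called 0, DESeq2 called 4 (5.09% of all genes), limma-voom 7 (10%) and the fit on 10 libraries 1, Hoxa5 (3.23%). Within Lrig1-high, where edgeR called 0, DESeq2 called 2 (0.821%), and leaving out each library gave 0 to 2, the 2 without S04. The remaining comparisons gave 0 Hox genes under every alternative run. The Hoxa9 fold change turned to -0.32 on the log2 scale without tumor Lrig1-high replicate S04, over a range of -0.32 to 2.33. The causes were not tested. Ratios of tumor over normal mean sums ranged over 4.57 to 6.33 for anterior, 3.67 to 7.22 for middle and 5.90 to 43.4 for posterior genes with a library left out. Values near 3 counts limit all genes outside the 14 tested.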
